A study of Mus musculus with 9 samples.

Results

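The genes that encode the proteins of the cytosolic ribosome were followed in laser-microdissected capillaries of the ossification front (OF) of mouse femurs. Members were taken by symbol and gene type: protein-coding genes named Rpl or Rps with a number, plus Rplp0, Rplp1, Rplp2 and Rpsa, without pseudogenes and without the Rps6k kinases. This gave 83 of the 39179 genes listed in the count tables, 51 of the large and 32 of the small subunit. A further 5 genes fitted the naming pattern but are not annotated as protein-coding and were left out. Of the 83 members, 82 had a count in at least 1 library, and 81 passed the filter on low counts that left 13418 genes for testing.

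The samples were pieces of the OF, the zone of active bone formation beneath the growth plate, each piece a single capillary cut together with the cells around it, and many pieces were collected for each sample. They came from juvenile (4 weeks, n = 5) and adult (12 weeks, n = 4) Tg(TIE2GFP)287Sato/J mice on a C57BL/6 background. In these mice the Tie2 promoter drives GFP in endothelial cells, which marked the vessels for cutting, and both ages carried the transgene without further treatment. The comparison of the ages asked how the capillary environment differs between growing and mature bone. Each library was a mixture of cell types, so fewer cells of a type and less RNA per cell cannot be told apart.

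The ribosome translates every mRNA of the cell. Its large subunit forms the peptide bond and its small subunit decodes the message, and each protein is usually present in a single copy, so that the genes are expressed together and at a high level. Growing cells raise output mainly through translation: the mRNAs of ribosomal proteins begin with a stretch of pyrimidines, the terminal oligopyrimidine (TOP) tract, through which mTORC1 and the RNA-binding protein LARP1 control how well they are translated. Bone-forming cells, which secrete large amounts of collagen, depend on a high capacity for protein synthesis. Inherited loss of 1 copy of several ribosomal protein genes causes Diamond-Blackfan anaemia, a failure of red cell production that can come with skeletal malformation.

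Short motifs were searched in the start regions of the members. RefSeq promoters (GRCm38.p6) were at hand for 63 of the 83 members, among 27025 promoters in all. The letters CTTTCC or CTTTTC, searched on the gene's own strand from 25 bases before to 50 bases after the first listed start, were found in 23 members (36.5%) and in 5.92% of all promoters. CTTTCC alone was present in 16 members (25.4%, against 3.46%) and CTTTTC in 8 (12.7%, against 2.62%). The letters TTCCGG, the core of the site bound by ETS-family factors, were searched on both strands over the whole promoter and were found in 32 members (50.8%, against 15.2%). CACGTG, the E-box bound by MYC, was found in 7.94% of members against 7.24% of all promoters, and TATAAA lay from 45 to 15 bases before the start in 1 member (1.59%, against 2.36%). TTCCGG overlaps CTTTCC where CTTTCC is followed by GG, so 1 stretch can count under each. The sequences that follow were picked among the members with a match that are described later for their level, their age difference or a related gene; 30 bases are printed for each, 5′ to 3′ on the gene's strand, with the matched letters in capitals.
Rpl4, chr9:64173363-64173392, plus strand: gacaagtctttcCTTTTCctgtgggagcag
Rpl27a, chr7:109519186-109519215, plus strand: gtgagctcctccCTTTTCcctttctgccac
Rpl38, chr11:114668568-114668597, plus strand: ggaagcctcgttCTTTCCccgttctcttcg
Rpl26, chr11:68901579-68901608, plus strand: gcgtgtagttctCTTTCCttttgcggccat
Rps27, chr3:90213630-90213659, minus strand: ccgctttcgctcCTTTCCggcggtgacgac
Rps27l, chr9:66946083-66946112, plus strand: gccgcctctatcCCGGAAgttgctgagggg
Rpl39, chrX:37085181-37085210, minus strand: ctaatcgcgttcTTCCGGtcccggcctttc
Rpl39l, chr16:10170210-10170239, plus strand: tagctcccaggcCTTTCCggatttccggtg
Rpl7l1, chr17:46782623-46782652, minus strand: gtagctgaagcaCCGGAAagatggcggagg
Rpsa, chr9:120127761-120127790, plus strand: taaggacgtcatTTCCGGccgcccgtcctt
CCGGAA is TTCCGG read on the other strand. In Rpl4, Rpl27a, Rpl38, Rpl26 and Rps27 the matched letters stand within a longer run of C and T. Of the other members described later, Rplp0, Rplp2, Rpl41, Rpl22, Rpl22l1, Rpl3l, Rps28 and Rps4x held neither these pyrimidine letters nor TTCCGG close to the start. The same holds for Rpl5, Rpl10l, Rps2, Rps3 and Rps26. This says only that these letters are not there.

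The libraries held 4856833 to 7398483 counts in juvenile and 5821596 to 8077362 in adult mice. Endothelial markers summed to 618.9–1005 CPM (counts scaled to a fixed library total) in juvenile and 868.1–1119 CPM in adult libraries, and 0 of 12 differed between the ages in edgeR's test. Osteoblast markers, led by the collagen genes Col1a1 and Col1a2, took 166200–195000 CPM in juvenile and 70520–98170 CPM in adult libraries. In the same list edgeR called 6 of 12 genes as higher in juvenile and 2 as higher in adult mice, the osteocalcin genes Bglap (log2 fold change -2.04, SE 0.4) and Bglap2 (-2.38, SE 0.412). Erythroid markers summed to 659.4–3045 against 5989–42590 CPM and neutrophil markers to 24.71–79.22 against 120.4–4991 CPM. The 10 genes with the most counts held 24.21–28.48% of juvenile and 12.68–19.08% of adult libraries. Juvenile replicates 4 and 5 had Y-linked counts (Ddx3y, 439 to 524) and almost none on Xist (1 to 11), while the other 7 libraries had 2965 to 6598 counts on Xist. The part of these differences in the values that follow was not tested, apart from the comparisons without single libraries and without replicates 4 and 5 given beside them.

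Ribosomal protein genes were deeply counted, and the order of their levels was similar in all 9 libraries. Tested members had 116 to 10093 counts per library, and 78 of them had at least 400 in every library. Levels are given as normalised CPM per kilobase of the shortest transcript with the complete principal coding sequence, as mean ± SD over all 9 libraries. The median tested member stood at 492.3 with quartiles of 285.4 and 680.5. Rpl41, which encodes the smallest ribosomal protein, was the highest at 2615 ± 632, with a range of 1592 to 3526. The next 4 genes were Rpl32 at 1295 ± 193, Rpl38 at 1293 ± 114, Rps28 at 1289 ± 127 and Rps29 at 1246 ± 151, and these did not differ beyond their spread. Rpl38 is the gene mutated in the Tail short mouse, in which vertebrae are wrongly patterned, and Rps28 and Rps29 are Diamond-Blackfan anaemia genes. The order depends on the transcript chosen: with the union of all annotated exons as the length, 2 of these 5 genes stayed among the highest 5, and the rank correlation of the orders was 0.77 over members.

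The lowest detected members were mainly relatives of other ribosomal protein genes. Rpl3l, the form of Rpl3 used in heart and skeletal muscle, had 0, 3, 1, 10 and 3 counts in juvenile replicates 1 to 5 and 27, 0, 0 and 0 in adult replicates 1 to 4, and was not tested. Rpl10l, which serves spermatogenesis in place of the X-linked Rpl10, had 0 counts in all 9 libraries; a floor of 3 counts corresponds to 0.371–0.618 CPM, for counting error only. Among tested members, Rpl7l1 (53.7 ± 20.4), Rpl39l (53.9 ± 21.9) and Rpl29 (58.5 ± 7.17), a large-subunit gene whose loss gives small mice with fragile bones, had the lowest levels. Rps20 followed at 134 ± 22.3, but this value rests on a transcript of 3706 bases, the shortest annotated one with the complete principal coding sequence. Members are short genes: 63 had a transcript under 1000 bases, and the median of tested members was 681 bases, against 2714 for all tested genes.

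**Figure D1:**
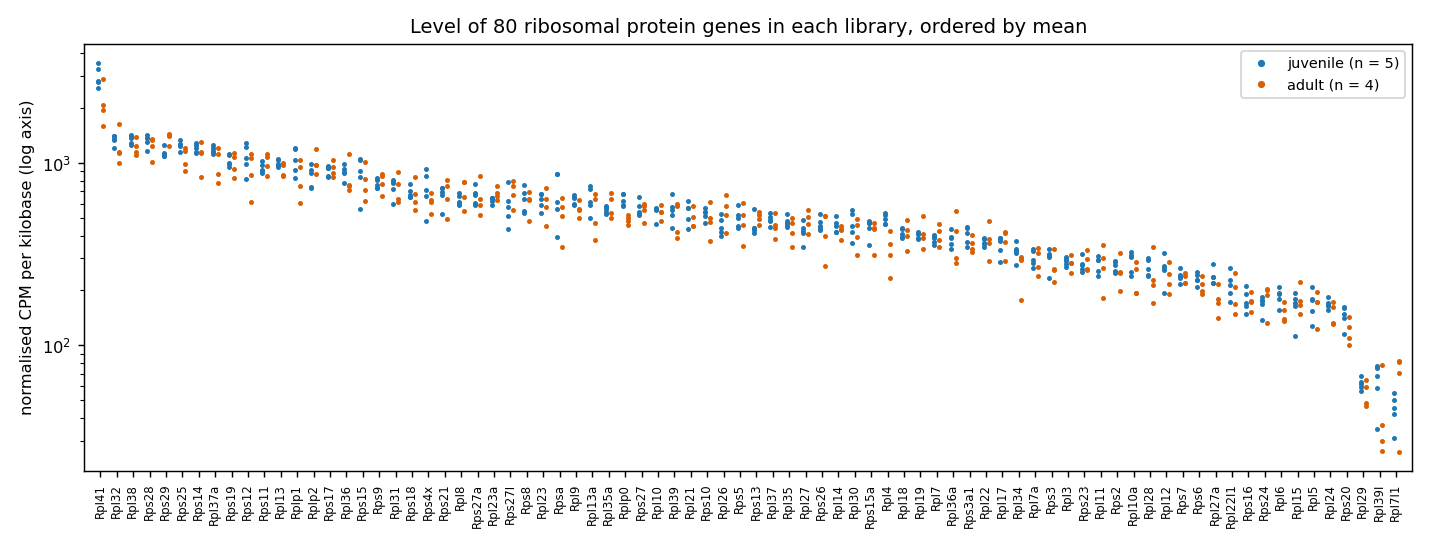
Level of 80 of the 81 tested ribosomal protein genes (normalised CPM per kilobase, log axis) in every library, ordered from the highest to the lowest mean; each point is 1 library, blue for juvenile (n = 5) and orange for adult (n = 4). Rpl41 stands above the others at 1592 to 3526, while Rpl39l and Rpl7l1 have the lowest levels and a wide scatter.

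As a sum, ribosomal protein genes held between 2.686 and 3.837% of the counts, and the ages overlapped. The share of library counts was 3.127, 2.805, 3.183, 3.224 and 3.293% in juvenile replicates 1 to 5 and 2.686, 3.08, 3.352 and 3.837% in adult replicates 1 to 4. The juvenile mean was 3.126 ± 0.19% (SD, n = 5) and the adult mean 3.239 ± 0.484% (SD, n = 4), and all 5 juvenile values lay between the lowest and the 2 highest adult values. The lowest and the highest share of the series both belonged to adult mice. The difference, juvenile minus adult, was -0.112 percentage points with all libraries and 0.0871 without adult replicate 4. When the 10 most counted genes were removed from the total, the share was 4.233 ± 0.323% in juvenile and 3.823 ± 0.526% in adult mice, so that the sign of the difference turned to 0.41 percentage points. Large-subunit genes took 1.653–1.941% against 1.538–2.232%, and small-subunit genes 1.152–1.362% against 1.147–1.605%. The ratio of large- to small-subunit counts was 1.338 to 1.436 in juvenile and 1.304 to 1.391 in adult libraries, with overlapping ranges.

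**Figure D2:**
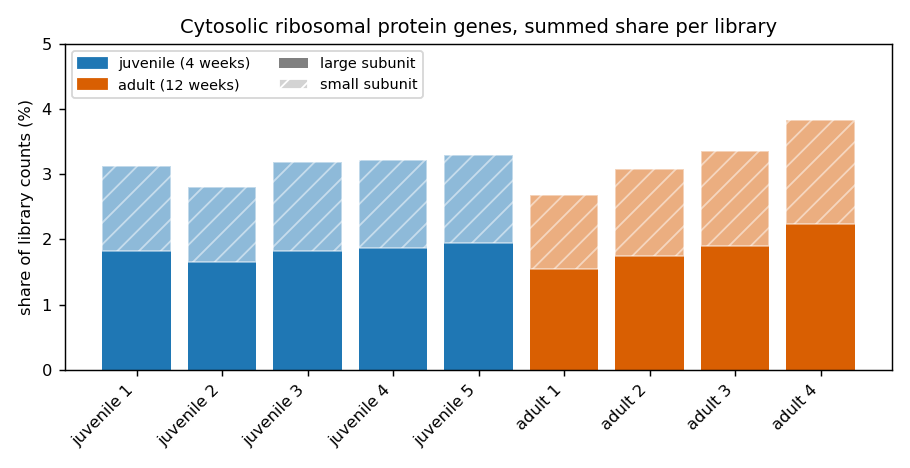
Summed share of library counts (%) held by the 83 ribosomal protein genes in each library, stacked as large subunit (solid) and small subunit (hatched); bars are single libraries, blue for juvenile and orange for adult. The juvenile bars reach 2.805 to 3.293% and the adult bars spread more widely, from 2.686 to 3.837%.

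None of the 81 tested members differed between the ages when called by edgeR's quasi-likelihood test with an adjusted p under 0.05, which called 3.88% of all 13418 tested genes. The smallest adjusted p of a member was 0.0949. At an unadjusted p under 0.05 there were 4 members, against 17.3% of all genes in either direction. All 4 were higher in juvenile mice, against 8.54% of all genes in that direction. DESeq2 called 3 members, where it called 9.47% of 15726 genes. Normalised counts of the ages did not overlap for 3 members, against 9.15% of all genes. The shares among members lay below those of all genes for edgeR's calls, for DESeq2's calls and for separated groups.

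The differences themselves were small and closely estimated. The log2 fold change, juvenile over adult, ranged from -0.53 to 0.57, with a median of 0.10 and quartiles of -0.02 and 0.17. Over all tested genes the median was -0.01 and the quartiles were -0.46 and 0.44. It was above 0 in 58 members and below 0 in 23, where 49.5% of all genes were above 0. Without scaling of the library totals only 18 members were above 0, and the members' median was -0.08 while that of all genes was -0.18. The members' median minus that of all genes was 0.104 with all libraries, 0.0153 without adult replicate 1, 0.203 with offsets for length and GC content and, with the sign turned, -0.0233 with limma voom. Without adult replicate 1 the count was 40 and the members' median was 0.00. The 95% interval of the log2 fold change lay within -1 and 1, thus within 2-fold, for 79 of 81 members, against 24.5% of all genes, the exceptions being Rpl39l and Rpl7l1. It lay within 1.5-fold for 58 members. The median standard error was 0.165 in members and 0.456 in all genes, whose median counts were also lower (7.29 against 11.1 on the log2 scale). These precise values belong to genes counted deeply.

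**Figure D3:**
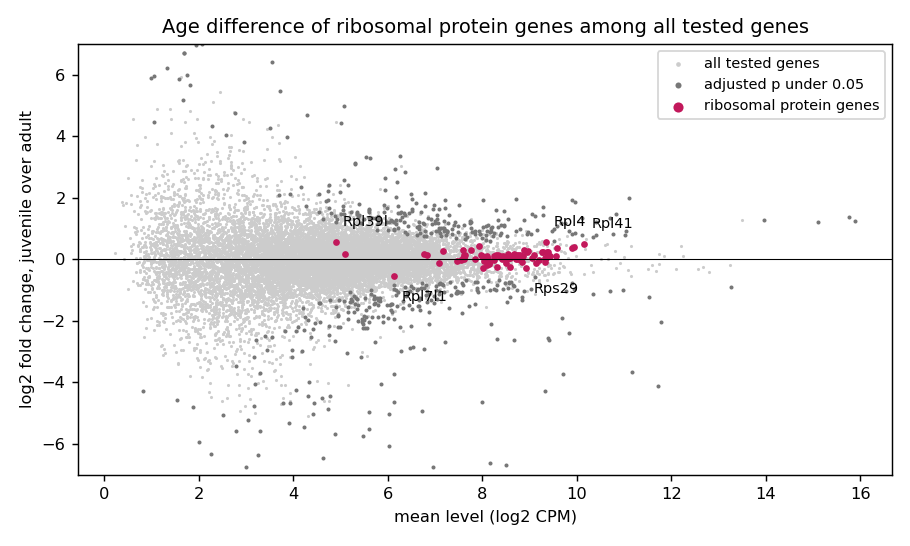
Log2 fold change (juvenile over adult) against mean level (log2 CPM) for all 13418 tested genes in light grey, genes with an adjusted p under 0.05 in dark grey and ribosomal protein genes in red; 35 genes beyond the plotted range are not drawn. The members lie in a narrow band from -0.53 to 0.57, and none is among the genes with an adjusted p under 0.05.

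By subunit, the values lay close together. Of 49 tested large-subunit genes, 35 had a log2 fold change above 0 and 14 below, with a median of 0.12, and the 4 genes with an unadjusted p under 0.05 were all of this subunit. Of 32 small-subunit genes, 23 were above and 9 below 0, with a median of 0.06, and the smallest adjusted p in edgeR was 0.305. All 32 small-subunit intervals lay within 2-fold.

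Rpl4, whose protein lines the narrowest part of the tunnel through which the new peptide leaves the ribosome, had the largest difference. The gene lies on chromosome 9 from 64173375 to 64178666 (GRCm38), and the matched letters of its sequence begin at its first annotated base. Normalised counts were 4464, 5159, 4468, 4778 and 5021 in juvenile and 2261, 3486, 3024 and 4111 in adult replicates. Every juvenile library lay above every adult library, with means of 4778 ± 316 and 3220 ± 780. The log2 fold change was 0.57 (SE 0.175, 95% interval 0.19 to 0.95), with an adjusted p of 0.0949 in edgeR and of 0.0216 in DESeq2. Over the 14 alternatives fitted to all 9 libraries the adjusted p ranged from 0.0216 to 0.248. In those with the replicate number as a block, juvenile replicate 5 had no adult counterpart and did not inform the age difference. In edgeR the adjusted p was 0.33 among the 7 libraries with Xist counts. The annotated exons of Rpl4 overlap 2 small nucleolar RNAs on the same strand, as is common among members: 24 of 83 have such an overlap.

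The stalk of the large subunit, which recruits the elongation factors, is built from Rplp0 and pairs of Rplp1 and Rplp2. Rplp0 had 5801, 4947, 5050, 5732 and 5307 normalised counts in juvenile and 3887, 4417, 4257 and 4117 in adult replicates, again without overlap. Its log2 fold change was 0.36 (SE 0.132, 95% interval 0.08 to 0.65), with an adjusted p of 0.155 in edgeR and of 0.0173 in DESeq2, and it ranged from 0.32 to 0.39 when single libraries were left out. Rplp1 had 2588 to 3769 counts in juvenile and 1887 to 3237 in adult mice, with a log2 fold change of 0.31 (SE 0.192, adjusted p = 0.456 in edgeR). Rplp2 lay on the other side, at 1932 to 2614 against 2303 to 3141, with -0.23 (SE 0.159, adjusted p = 0.52 in edgeR). Rpl12, at the stalk base, had 0.15 (SE 0.181). The 3 stalk proteins bind each other in fixed numbers, and none of their mRNAs passed edgeR's threshold.

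Rpl41 had 7738, 7098, 7646, 9017 and 9670 normalised counts in juvenile and 4365, 5691, 5388 and 7937 in adult replicates. Adult replicate 4 fell among the juvenile values. Its log2 fold change was 0.49 (SE 0.183, 95% interval 0.10 to 0.89), with an adjusted p of 0.166 in edgeR. Rpl27a, another large-subunit gene, had 1593, 1599, 1718, 1720 and 2042 against 1030, 1238, 1576 and 1308, so that the ages were separated by a narrow gap between 1576 and 1593. Its log2 fold change was 0.43 (SE 0.167), with an adjusted p of 0.189 in edgeR. Rpl39l also had a large difference towards juvenile mice and is described with the related genes.

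Towards adult mice the largest difference belonged to Rpl7l1, a relative of Rpl7 found in the nucleolus. It had 254, 452, 345, 375 and 414 normalised counts in juvenile and 215, 672, 668 and 577 in adult replicates. Adult replicate 1 was the lowest of all 9 libraries and the other 3 adult libraries were the highest. The log2 fold change was -0.53 (SE 0.314, 95% interval -1.21 to 0.14, adjusted p = 0.43 in edgeR) and reached -0.81 at the extreme of leaving out single libraries. Rps29, a zinc-binding protein of the small subunit, had 2729, 2667, 3081, 2672 and 2766 against 3020, 3468, 3534 and 3502. The lowest adult value lay just below the highest juvenile value. Its log2 fold change was -0.28 (SE 0.134, 95% interval -0.57 to 0.01), with an adjusted p of 0.305 in edgeR and of 0.0462 in DESeq2, the only call of a member as higher in adult mice. Rpl26, whose protein sits at the tunnel exit, had -0.26 (SE 0.173, adjusted p = 0.498 in edgeR), and Rps27l, a relative of Rps27 known as a target of p53, had -0.24 (SE 0.191, adjusted p = 0.607 in edgeR).

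Rpsa, a small-subunit protein that was also described as a laminin receptor, was among the most variable members. It had 6164, 3948, 5630, 8786 and 8791 normalised counts in juvenile and 3493, 5745, 5136 and 6432 in adult replicates. Juvenile replicates 4 and 5, the libraries with Y-linked counts, were the highest. The log2 fold change was 0.36 (SE 0.247, adjusted p = 0.527 in edgeR) with all libraries and 0.02 among the 7 libraries with Xist counts. The same 2 libraries were highest for Rps4x, an X-linked small-subunit gene, which had 4023, 2937, 4344, 5667 and 5172 against 3214, 3724, 3845 and 4187, and whose log2 fold change went from 0.24 to 0.01 without them. The other X-linked members, Rpl10, Rpl36a and Rpl39, had log2 fold changes of 0.01, -0.02 and 0.15. In a description chosen after these values were seen, juvenile replicates 4 and 5 both lay above juvenile replicates 1 to 3 for 31 of 81 members, against 12.5% of all tested genes, and both lay below them for 7, against 12.8%. With only the 7 libraries, the members' median log2 fold change was 0.02.

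Adult replicates 1 and 4 marked the outer limits of the whole family. Relative to the mean of the 9 libraries, the median member stood between -0.08 and 0.10 on the log2 scale in the juvenile libraries and at -0.30, -0.06, 0.06 and 0.15 in adult replicates 1 to 4. Adult replicate 1 was the lowest library for 49 of the 81 members, whereas adult replicate 4 was the highest for 21 and adult replicate 3 for 17. In adult replicates 1 to 4, neutrophil markers summed to 4991, 120.4, 3762 and 4107 CPM. Erythroid markers summed to 9123, 5989, 12810 and 42590 CPM in the same order. The part of these cells in the spread was not tested. The median standard deviation of log2 normalised counts was 0.149 within juvenile and 0.25 within adult mice for members, against 0.519 and 0.713 for all tested genes. Pearson correlations of log2 counts over members were 0.944–0.987 for the 10 juvenile pairs of libraries, 0.931–0.972 for the 6 adult pairs and 0.928–0.967 for the 20 pairs between ages. They describe a shared order of levels across genes, which are not independent replicates.

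**Figure D4:**
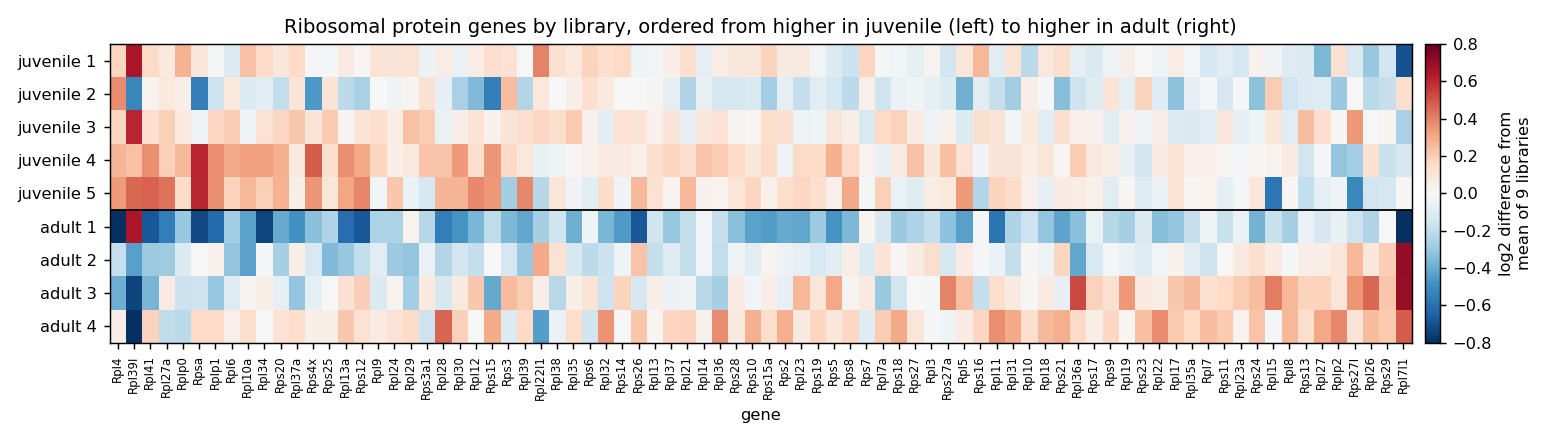
Log2 difference of 80 of the 81 tested ribosomal protein genes (columns) from their means over 9 libraries, by library (rows), red for higher and blue for lower, with the most extreme values drawn at the end of the colour scale; genes run from higher in juvenile (left) to higher in adult (right). Adult replicate 1 is blue for most genes, being the lowest library for 49 of 81, and the Rpl39l and Rpl7l1 columns have the strongest colours.

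Members were also grouped by role, in groups assembled after the values were seen. The stalk proteins Rplp0, Rplp1, Rplp2 and Rpl12 had a median log2 fold change of 0.23. For Rpl5 and Rpl11, which bind the smallest rRNA and, when free, restrain the p53 inhibitor MDM2, the log2 fold changes were 0.03 and 0.02. Of 9 proteins at the peptide exit tunnel, 4 were above and 5 below 0, with a median of -0.04 and Rpl4 and Rpl26 at the ends. Rps2 and Rps3, at the entry of the mRNA channel, had 0.09 and 0.15. For Diamond-Blackfan anaemia 14 genes were taken, which need not be all the genes mutated in it. Of these 14, 7 were above and 7 below 0, with a median of -0.01. Their range was -0.28 for Rps29 to 0.12 for Rps26, and the even split holds for this choice of genes only. Rps19, the gene most often mutated in that disease, had 3788–4459 normalised counts in juvenile and 3272–4525 in adult mice, with a log2 fold change of 0.06 (SE 0.147). None of the genes of these groups and of the stalk had an adjusted p under 0.05 in edgeR, and the unadjusted p was under 0.05 only for Rpl4 and Rplp0. The steadiest members over the 9 libraries were Rps7, Rpl23a and Rpl3, with standard deviations of log2 normalised counts of 0.0968, 0.097 and 0.0983. Rpl39l and Rpl7l1, at 0.641 and 0.58, varied most among tested members, followed by Rpsa at 0.451, Rpl4 at 0.393 and Rpl41 at 0.374.

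Several ribosomal protein genes have a relative that can take their place, and the ratio within a library does not depend on scaling. Counts of the relative are given as a percentage of the partner's counts, which serves to compare libraries and not levels, since transcript lengths differ. Reads of such near-copies may have been split or lost in counting, so the ratios are uncertain. Ages were compared by exact permutation (two-sided) of the log2 ratios over every split of the 9 libraries, with 0.00794 as the smallest p possible, adjusted over 7 pairs.

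Rps27l counts were 157, 165, 197, 114 and 121% of those of Rps27 in juvenile and 172, 187, 208 and 163% in adult replicates. Juvenile replicates 4 and 5 were again apart, here as the lowest. The log2 ratio was 0.57 ± 0.326 and 0.86 ± 0.153 (exact permutation p = 0.159, adjusted 0.426). Per kilobase, Rps27l stood at 633.8 ± 127 and Rps27 at 557.4 ± 52.6 over 9 libraries, which did not differ beyond their spread. Rpl22l1, which replaces Rpl22 when that gene is lost, was at 56.3–85.6% of Rpl22 in juvenile and 36.1–79.8% in adult mice (exact permutation p = 0.556, adjusted 0.556). Per kilobase it stood at 206 ± 38.9 and Rpl22 at 373.2 ± 49.9, with ranges that did not overlap. This separation depends on the chosen transcripts, of 552 bases for Rpl22l1 and 474 for Rpl22. The union of annotated exons is 1989 bases for Rpl22l1 and 2911 for Rpl22. Likewise, the comparison of Rps27l with Rps27 per kilobase depends on the length chosen. Rpl36al, which is no member by its name, lay at 96.1–153% of the X-linked Rpl36a in juvenile and 114–199% in adult mice (exact permutation p = 0.222, adjusted 0.426).

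Rpl39l, the counterpart of the X-linked Rpl39 best known from male germ cells, was detected in every library. It had 267, 119, 260, 201 and 235.5 normalised counts in juvenile and 268, 127, 102.5 and 91.2 in adult replicates. The highest value was in adult replicate 1, the library in which most members were lowest, and the other 3 adult values were among the lowest 4. The log2 fold change was 0.56 (SE 0.399, 95% interval -0.31 to 1.42, adjusted p = 0.552 in edgeR), and it was 0.36 to 1.01 when single libraries were left out. As a share of Rpl39 it was 7.03–13.4% in juvenile and 4.08–17.9% in adult mice (exact permutation p = 0.341, adjusted 0.426). Rpl7l1 was at 9.78–16% of Rpl7 in juvenile and at 7.73, 26.5, 21.5 and 17.1% in adult replicates 1 to 4 (exact permutation p = 0.357, adjusted 0.426). For Rpl3l and Rpl3 the share was at most 0.926% (exact permutation p = 0.365, adjusted 0.426), and Rpl10l and Rpl10 were not tested.

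The largest ratio difference was that of Rps4l and Rps4x. Rps4l is annotated as a transcribed processed pseudogene and is not a member. Its counts were 2.97, 8.34, 2, 2.93 and 2.14% of those of Rps4x in juvenile and 1.76, 0.281, 1.76 and 0.132% in adult replicates. Every juvenile share lay above every adult share, and the exact permutation p was 0.00794, the smallest this design can give. Adjusted over the 7 pairs it was 0.0556, which is the least that a single separated pair can reach here. Rps4l itself had 7 to 271 counts per library, a log2 fold change of 2.05 (SE 0.721) and an adjusted p of 0.145 in edgeR.

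**Figure D5:**
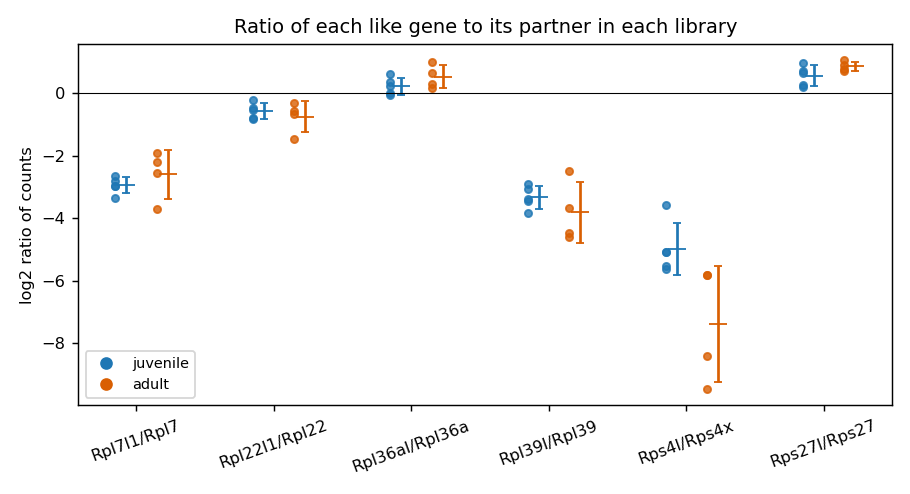
Log2 ratio of the counts of each related gene to those of its partner in every library (points), with the mean and SD of juvenile (blue, n = 5) and adult (orange, n = 4) mice beside them; Rpl3l, with few counts, is not drawn. The ages overlap for all pairs drawn except Rps4l and Rps4x, where all juvenile ratios lie above all adult ratios.

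Some copies and partners of the members lie outside the list. Of 237 listed pseudogenes named for members, 161 had counts, which came to 1.215–1.421% of the members' counts in a library. Rpl34-ps1 was the highest, with 6731 counts over all libraries. Rps27rt, a protein-coding near-copy of Rps27 on chromosome 9, had 1158–2211 counts and a log2 fold change of 0.08 (adjusted p = 0.87 in edgeR). Fau, which makes a ribosomal protein as a fusion with a relative of ubiquitin, had a log2 fold change of -0.16 (SE 0.178). Rack1, the scaffold protein on the small subunit, had 0.12 (SE 0.169). None of the genes named here had an adjusted p under 0.05 in edgeR.

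The genes around the ribosome were followed through lists. Among 44 nucleolar factors that assemble ribosomes, the median log2 fold change was 0.09. EdgeR called 1 gene as higher in adult and 0 in juvenile mice, beside 3.88% of all tested genes in either direction. This gene was Nop10, a core component of the particles that convert uridine to pseudouridine in rRNA, with 563.7 ± 143 normalised counts in juvenile and 1131 ± 266 in adult mice and a log2 fold change of -1.0 (SE 0.236, adjusted p = 0.0343 in edgeR). Without adult replicate 1 its adjusted p was 0.018 and without juvenile replicate 3 it was 0.0419 in edgeR, while leaving out any of the other 7 libraries took it to between 0.0549 and 0.084. In 5 further lists edgeR called 0 genes: 19 of RNA polymerase I and its factors (median 0.13, 2 genes with an unadjusted p under 0.05, DESeq2 0 calls), 37 initiation factors (0.08, 5 and 3), 10 elongation and termination factors (0.24, 3 and 1), 25 genes of mTORC1 and TOP mRNA control (0.23, 2 and 1), and 21 other TOP mRNAs (0.12, 3 and 1). The last list shares Eef1a1, Eef1b2, Eef1d, Eef1g and Eef2 with the elongation factors, Eif3e, Eif3f, Eif3h, Eif4b and Pabpc1 with the initiation factors and Npm1 with the assembly factors, so that Eef1a1 and Eef2 count in both lists among the unadjusted p under 0.05. Over all genes, 17.3% had an unadjusted p under 0.05 in edgeR, and DESeq2 called 9.47%.

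Mitochondria have ribosomes of their own, whose proteins are encoded in the nucleus. Of 76 tested genes of these proteins, 18 had a log2 fold change above 0, where 49.5% of all genes were above 0. The median was -0.30, against 0.10 for the cytosolic ribosomal protein genes and -0.01 for all tested genes. At an unadjusted p under 0.05 in edgeR there were 11, of which 10 were higher in adult mice, beside 17.3% of all genes in either direction. Over all genes, 1146 of the 2321 with such a p were higher in juvenile mice. EdgeR called 3 genes, beside 3.88% of all genes. Mrpl45 was higher in juvenile mice, at 239.7 ± 72.7 against 63.7 ± 35.8 normalised counts (log2 fold change 1.91, SE 0.439, adjusted p = 0.0311 in edgeR). Mrpl18 was lower, at 356 ± 54.7 against 757 ± 238 (-1.09, SE 0.239, adjusted p = 0.0245 in edgeR), and so was Mrpl36, at 429 ± 144 against 854.9 ± 183 (-0.99, SE 0.254, adjusted p = 0.0482 in edgeR). Annotated exons of Mrpl18 overlap those of Tcp1, and those of Mrpl36 overlap Ndufs6, so their counts may hold reads of the neighbour. Among the 7 libraries with Xist counts the log2 fold changes were 2.10 for Mrpl45, -1.01 for Mrpl18, -0.77 for Mrpl36 and -0.83 for Nop10, and the adjusted p in edgeR was 0.123, 0.189, 0.28 and 0.197. Leaving out single libraries moved the adjusted p in edgeR, with some calls kept and some lost for each gene, to 0.0169–0.0782 for Mrpl45, 0.0135–0.0701 for Mrpl18 and 0.022–0.125 for Mrpl36.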

How the data were processed

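RNA of capillaries cut by laser microdissection from the OF of femurs was sequenced by the authors after SMART-Seq v4 amplification. The labels name TopHat2, Bowtie2 and featureCounts and the builds mm10 and GRCm38; versions, strand setting and treatment of multiply mapped reads are not given in the sources used here. The deposited values are raw counts per Ensembl gene and library, without normalisation by the authors. Members and lists were chosen with earlier results of these data known.

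Here, GENCODE annotation (GRCm38) matched 37693 of 39179 genes, which held at least 99.3% of the counts. Counts were filtered with filterByExpr, scaled by TMM and compared between ages with edgeR's quasi-likelihood test (edgeR 4.0.16, R 4.3.3), with Benjamini-Hochberg adjustment over all 13418 tested genes. Normalised counts are counts divided by the effective library size relative to its geometric mean. Intervals are 95% intervals. Alternatives included DESeq2 1.42.0 and limma 3.58.1 voom. The main edgeR fit, DESeq2 and voom were also run on simulated counts, and the other alternatives were not. Log2 ratios of related genes used a prior count of 0.5, for pairs with a mean of at least 3 counts. Named members were those called, the 5 largest and 5 smallest log2 fold changes, the 5 highest and 5 lowest levels, the P proteins, Rpsa and members with a related gene; from the lists, called genes. Values of 1 of these members are not reported here. Gtf3c2 and Ahsp were not found among the listed symbols. No 2 libraries agreed within sampling noise (36 pairs). Each library is taken as 1 mouse.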

Additional observations from a re-analysis of the deposited data

Results flagged for a closer look

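In 70 groups of values (named members' normalised counts, ratios of related genes and the summed share, each within 1 age), the gap of the highest or lowest library to its nearest neighbour was set against the range of the group. In 6 groups it was above Dixon's critical value, where chance gives about 3.5. Rpl10 was low in juvenile replicate 1, with 2322 normalised counts while the remaining juvenile replicates had 2775–2840 (0.875 of the range). Rpl27a was high in juvenile replicate 5, with 2042 against 1593–1720 (0.717). Rps29 was high in juvenile replicate 3, with 3081 against 2667–2766 (0.762), and low in adult replicate 1, with 3020 against 3468–3534 (0.872). These 2 libraries are those that brought the ages together for Rps29. The log2 ratio of Rpl3l to Rpl3 was -6.73 in adult replicate 1, which holds all 27 adult counts of Rpl3l, against -12.59 to -12.31 in the other adult libraries, where the counts were 0 (0.952). The log2 ratio of Rps4l to Rps4x was -3.58 in juvenile replicate 2 against -5.63 to -5.07 in the other juvenile libraries (0.724); there Rps4l had 271 counts.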

How the results depend on the processing

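No member was called in any of the edgeR and limma voom fits, which included other scalings and filters, length and GC offsets, thinned counts and each library left out; the members with an unadjusted p under 0.05 were 3 to 6 when single libraries were left out. DESeq2 called 2 members as higher in juvenile and 1 as higher in adult mice. The median log2 fold change of members was 0.076 with DESeq2's size factors, 0.101 with upper quartile scaling, 0.149 with length and GC offsets, 0.023 in the 7 libraries with Xist counts, and between -5.09e-05 and 0.124 when single libraries were left out. The difference in summed share was 0.41 percentage points without the 10 most counted genes, and -0.297 to 0.0871 with single libraries left out. In the lists, DESeq2 called 2 assembly factors, 3 initiation factors, 1 elongation factor, 1 gene of mTORC1 and TOP control, 1 other TOP mRNA and 5 mitochondrial ribosomal protein genes. Its share over all genes was 9.47%. Leaving out each library and the 7-library fit were added for the lists after the data were seen: assembly factors had 0 to 1 calls, initiation factors 0 to 1 and mitochondrial ribosomal protein genes 0 to 3, and the 7 libraries gave 0 in each list. With the replicate number as a block, 0 members, 0 assembly factors and 0 mitochondrial ribosomal protein genes were called. The members' median was then 0.079, which was 0.000364 above that of all genes. The numbers name different mice, and deviations from the age mean correlated at -0.032 to 0.030 between same-numbered libraries. Such deviations sum to 0 within each age, so these values cannot tell whether same-numbered libraries share more than a number. Juvenile replicate 5 has no adult library of its number, so it did not inform the age difference in that fit. Of the alternative values of single genes, ratios and minor counts, 735 kept their direction and side of the threshold. Another 42 changed direction or, for counts, moved by over 1.5 times. The remaining 3 passed the threshold, which were those of Rpl4, Rplp0 and Rps29 in DESeq2. By the same rule, 176 alternative values of the main results were kept and 27 moved.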
